A study of Mus musculus with 6 samples.

Results

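In the clone B8, most genes of a pair of neighbouring stretches of mouse chromosome 12 (93 of 112) had transcript levels shifted away from those of every other library, upward in the first stretch and downward in the second. The members are the genes of chromosome 12 with a mean of at least 1 RPKM (reads per 1000000 reads and per kilobase of cDNA) over the 6 libraries that start between 85029513 and 93087597 (the raised stretch, 59 genes) or between 99440510 and 110266662 (the lowered stretch, 53 genes) on the mm9 build. They are 112 of 11595 genes that reached this minimum, out of 22602 genes in the table. The stretches were chosen by the RPKM values of B8 itself, so differences of B8 from the other libraries in these genes are given as a description, with no test.

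The cells were mouse embryonic stem (mES) cells. The clones A6, B8 and C4 carry a Flag-tagged mouse Sim2 gene, followed by the fluorescent marker Venus, in the ROSA26 locus. Its promoter is silent while tetracycline is present and becomes active after the drug is removed. Each of them is 1 clone with 1 library. The control was EB3, the parental line, which lacks the Sim2 transgene and was sampled as 3 cultures (EB3-0, EB3-1 and EB3-2). The 6 cultures grew in the same medium with serum and leukemia inhibitory factor, and all of them, controls included, spent 26 h without tetracycline before RNA was taken. The clones test what SIM2, a bHLH-PAS transcription factor that pairs with ARNT, does to the transcripts of these cells.

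The recovered depth ran from 25095861 to 28269340 reads per library. Sim2 had 168 to 212 RPKM in the 3 clones, with 212 in B8, and at most 0.130 RPKM in EB3. Markers of mES cells (Pou5f1, Sox2, Nanog, Zfp42, Klf4 and Dppa5a) summed to between 4870 and 6291 RPKM, and B8 lay inside that range with 5926. Of these 6 genes, B8 was the highest library in 2 (Nanog and Dppa5a) and the lowest in 2 (Pou5f1 and Klf4). Over all genes tested it was the highest in 25.3% and the lowest in 26.5%. Summed markers of fibroblasts reached at most 13.8 RPKM, neural markers 15.5, primitive endoderm 4.97, mesoderm 2.33 and trophoblast 0.878, and B8 was not the highest for any of them except mesoderm. Among the EB3 cultures, EB3-0 stood apart. Counts of members called are given with and without it.

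ESRRB, encoded in the raised stretch, is an orphan nuclear receptor of the network that keeps mES cells in the naive state. FOS and JDP2, encoded nearby, are bZIP proteins that form dimers with JUN proteins, FOS as a subunit of the activating factor AP-1 and JDP2 mostly as a repressor at the same sites. TCL1, encoded in the lowered stretch, is a coactivator of the AKT kinases and is abundant in undifferentiated mES cells.

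The promoters of these 4 genes are shown because SIM2 and ARNT bind DNA at an ACGTG core. Fos, Jdp2 and Esrrb are also among the genes that the study assigned to a SIM2 binding site. Sites between genes or in introns were given to the nearest gene on either side, so a site need not lie in these windows. Each line gives the 250 bases ahead of the start of the listed gene in the mm9 genome, from 5′ to 3′ on the strand of the gene. Capitals mark an ACGTG core, read on either strand.

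Esrrb (chr12:87701817-87702066, plus strand): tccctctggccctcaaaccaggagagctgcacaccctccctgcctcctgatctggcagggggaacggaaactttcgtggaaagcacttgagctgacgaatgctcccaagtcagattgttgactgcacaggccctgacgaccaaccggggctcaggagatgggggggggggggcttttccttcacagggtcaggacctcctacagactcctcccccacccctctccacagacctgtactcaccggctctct

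Fos (chr12:86814601-86814850, plus strand): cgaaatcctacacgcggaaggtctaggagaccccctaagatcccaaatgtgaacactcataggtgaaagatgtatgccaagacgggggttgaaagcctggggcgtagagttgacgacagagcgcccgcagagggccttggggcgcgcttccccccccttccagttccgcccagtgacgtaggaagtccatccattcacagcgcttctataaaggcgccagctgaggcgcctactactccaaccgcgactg

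Jdp2 (chr12:86940116-86940365, plus strand): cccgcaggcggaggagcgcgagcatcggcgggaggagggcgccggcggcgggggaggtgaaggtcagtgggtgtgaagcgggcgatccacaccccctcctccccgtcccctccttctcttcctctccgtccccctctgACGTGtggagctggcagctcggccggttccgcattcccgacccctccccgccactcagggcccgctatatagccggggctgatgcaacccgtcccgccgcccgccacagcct

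Tcl1 (chr12:106460948-106461197, minus strand): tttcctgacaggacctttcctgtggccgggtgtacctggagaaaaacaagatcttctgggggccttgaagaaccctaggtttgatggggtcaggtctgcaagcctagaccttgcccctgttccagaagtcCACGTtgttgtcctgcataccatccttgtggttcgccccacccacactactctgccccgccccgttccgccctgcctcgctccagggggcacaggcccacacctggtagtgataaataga

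The Jdp2 window held 1 core, 112 bases ahead of the start, on the strand of the gene. The Tcl1 window held 1 core, 120 bases ahead of the start, on the opposite strand. No core lay in the windows of Esrrb and Fos. Over windows from 250 bases before to 50 after the start, the core was present in 13 of 59 raised members (22.0%), in 12 of 53 lowered members (22.6%) and in 26.0% of the promoters of all genes tested. The ESRRB motif TCAAGGTCA was found in 0 raised members, in 1 lowered member (D130020L05Rik) and in 0.285% of all promoters. The AP-1 motif TGACTCA was found in 0 raised members, in 1 lowered member (Foxn3) and in 3.12% of all promoters. The cyclic AMP response element TGACGTCA was found in 1 raised member (6430527G18Rik), in 3 lowered members (D230037D09Rik, Moap1 and Spata7) and in 3.42% of all promoters. These motifs were searched on both strands, and none of the 4 contains another.

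Esrrb had 299 RPKM in A6, 308 in C4, 276 in EB3-0, 277 in EB3-1 and 284 in EB3-2. In B8 it had 449.9 RPKM, above all other libraries, against a mean of 289 ± 14.1 (SD, n = 5), which is 1.56 times as much. Jdp2 had 7.11 RPKM in A6, 9.56 in C4, 6.44 in EB3-0, 6.17 in EB3-1 and 5.83 in EB3-2. With 25.8 RPKM, B8 was 3.67 times the mean of the others (7.02 ± 1.49, SD, n = 5), the largest ratio of the raised stretch. Fos, an immediate early gene, was low in every library. It had 1.96 RPKM in A6, 1.76 in C4, 1.84 in EB3-0, 2.16 in EB3-1, 1.52 in EB3-2 and 5.15 in B8, which was 2.79 times the mean of the others. Tcl1 had 116 RPKM in A6, 124 in C4, 131 in EB3-0, 114 in EB3-1 and 104 in EB3-2. B8 had 71.7 RPKM, below all 5 other libraries, at 0.609 times their mean of 118 ± 10.1 (SD, n = 5). In all 4 genes the value of B8 lay outside the range of the others. A6 and C4 lay within the range of the EB3 values for Fos and Tcl1. For Esrrb and Jdp2 both A6 and C4 were above all 3 EB3 values.

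**Figure D1:**
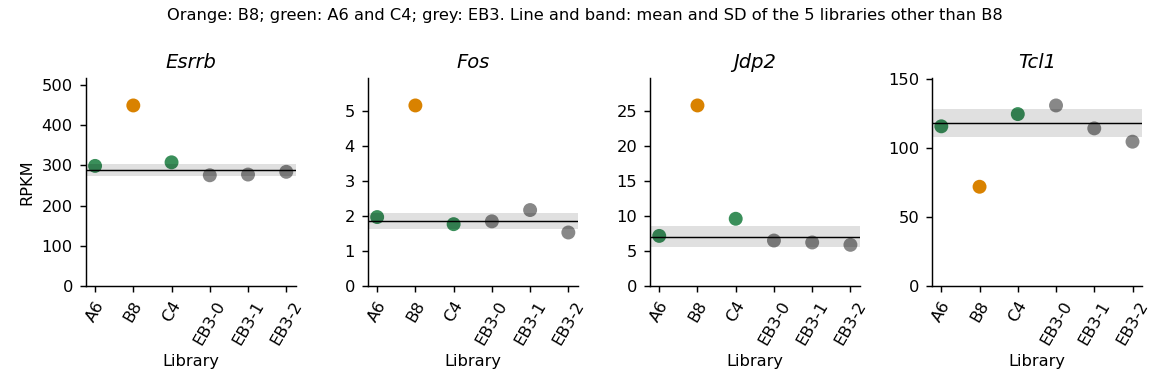
RPKM (vertical axes, linear, from 0) of Esrrb, Fos, Jdp2 and Tcl1 in each library, with B8 in orange, A6 and C4 in green and EB3 in grey. The line and the band are the mean and the SD of the 5 libraries other than B8, and B8 lies above the band in the first 3 genes (449.9 RPKM for Esrrb) and under it for Tcl1 (71.7 RPKM).

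Over the raised stretch, the median difference of B8 from the mean of the other 5 libraries was 0.57 on the log2(RPKM + 0.5) scale, with an interquartile range of 0.33 to 0.77. 53 of 59 members were higher in B8. In 48 members (81.4%) B8 was above each of the other 5 libraries, a pattern shown by 25.3% of all genes tested. Over the lowered stretch the median difference was -0.89, with an interquartile range of -1.07 to -0.67. All 53 members were lower in B8, and in 45 of them (84.9%) B8 was below each of the other libraries, against 26.5% of all genes tested. These counts describe the choice of the stretches, since the rule used the same values.

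The same medians were taken for the other 5 libraries. In the choice of the stretches these libraries were the reference for B8, so their values entered it too. Their medians share reference libraries and give no yardstick for B8, on whose shift the choice was made. Set against the mean of the remaining libraries without B8, the medians of these 5 libraries in the raised stretch ran from -0.04 in C4 to 0.04 in A6, with an SD of 0.034 (n = 5). In the lowered stretch they ran from -0.02 in EB3-1 to 0.04 in A6, with an SD of 0.020 (n = 5). A6 and C4, which carry the same transgene as B8, are among these 5 libraries. The cause of the difference in B8 was not tested.

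**Figure D2:**
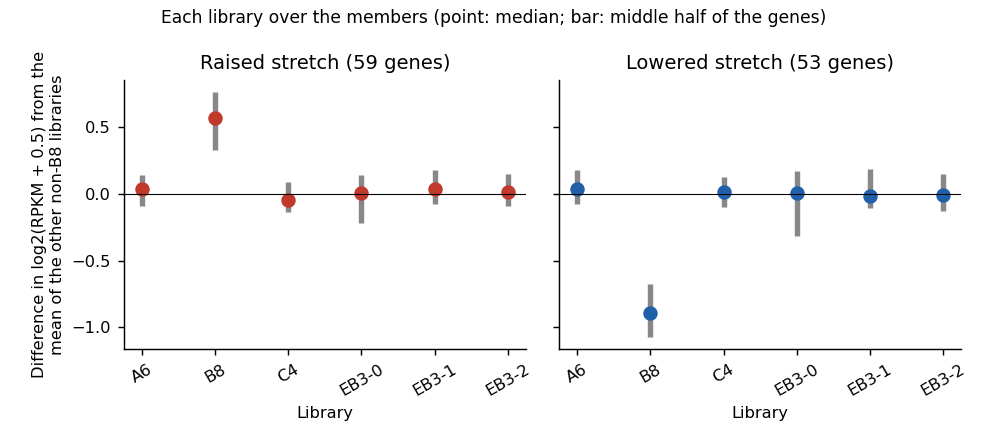
Median difference in log2(RPKM + 0.5) of each library from the mean of the remaining libraries without B8 (points), with the interquartile range of the genes (bars), for the 59 raised and the 53 lowered members. The medians of B8, whose values chose the stretches, are 0.57 and -0.89, and those of the other libraries run from -0.04 to 0.04.

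The difference of B8 changed between neighbouring genes at the ends of the stretches. Rbm25, which encodes a splicing factor, is the last gene tested ahead of the raised stretch and had a difference of -0.13 in B8. Sel1l, an adaptor of protein degradation at the endoplasmic reticulum, closes the raised stretch at 93087597 with a difference of 0.88. Galc, which encodes a lysosomal galactosylceramidase, opens the lowered stretch at 99440510 with -0.91. Its level was 0.817 RPKM in B8 and between 1.74 and 2.42 RPKM elsewhere. Wdr25 is the last lowered member, with a difference of -1.14, and had 2.67 RPKM in B8 against 5.86 to 7.01 RPKM in the others. Meg3, a long noncoding RNA of an imprinted cluster, is the first gene tested past it and was not lowered, with a difference of 0.61. Meg3 varied among the other libraries too, from 6.49 RPKM in EB3-0 to 16.9 in EB3-1, and B8 had 18.2 RPKM.

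The raised stretch covers 8.06 Mb and the lowered stretch 10.8 Mb, with 6.35 Mb between them. That interval holds 2 listed genes, neither of which reached 1 RPKM. The gene Flrt2 had 129 reads in B8, against 26 in A6, 36 in C4, 30 in EB3-0, 39 in EB3-1 and 42 in EB3-2. After scaling to depth this was 3.87 times the mean of the others, in the direction of the raised stretch. Its mean level was 0.27 RPKM, too low to place a boundary. The 240 genes tested on chromosome 12 ahead of the stretches had a median difference of -0.04 in B8, the 59 behind them 0.10, and the genes of the other chromosomes -0.005. Among whole chromosomes with at least 299 genes tested outside the stretches, medians ran from -0.05 on chromosome 6 to 0.10 on chromosome 15.

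**Figure D3:**
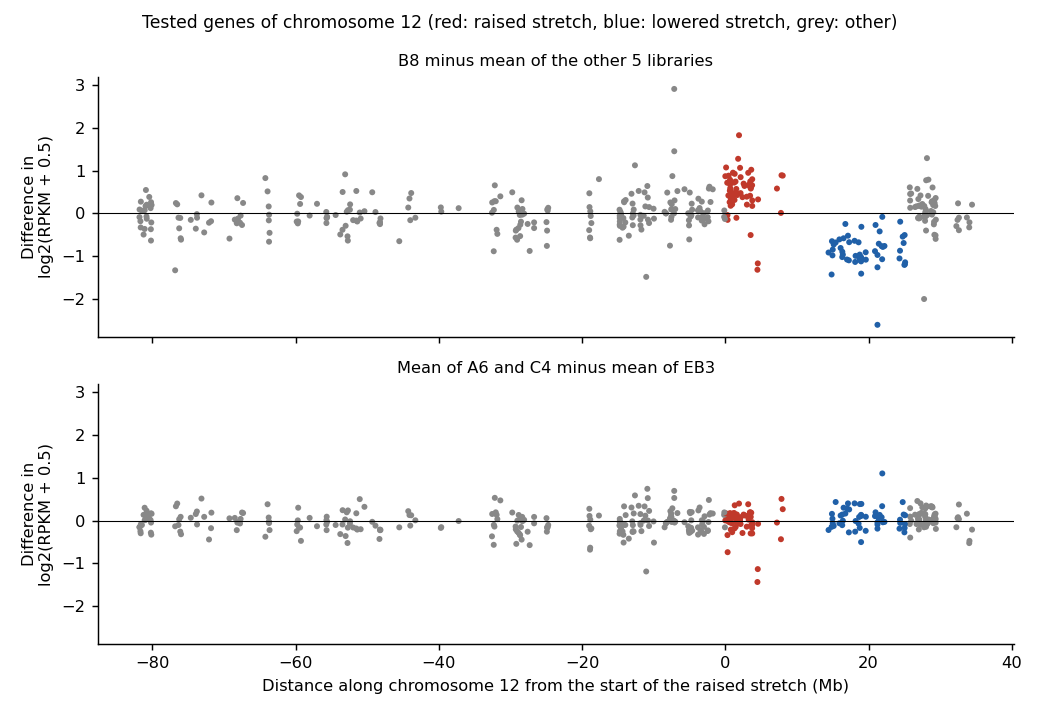
Each point is a gene tested on chromosome 12, placed by its distance from the start of the raised stretch in Mb (horizontal axis), with raised members in red, lowered members in blue and other genes in grey. The upper panel gives the difference of B8 from the mean of the other 5 libraries and the lower panel that of A6 and C4 from EB3, both in log2(RPKM + 0.5); the stretches leave 0 in the upper panel (medians 0.57 and -0.89) and lie on it in the lower panel (0.01 and 0.05).

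In 2 Mb steps from the first member, medians in the lowered stretch were -0.87, -0.67, -1.02, -0.77, -0.96 and -0.69 (2 to 12 genes each). In the raised stretch the first step (31 genes) had a median of 0.53 and the second (21 genes) 0.63. The third (3 genes) had -1.17, the fourth (3 genes) 0.58 and the fifth (1 gene) 0.88. In the third step 2 of the 3 genes, both predicted genes described below, went the other way.

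As a ratio of RPKM, B8 had a median of 1.48 times the other libraries over the raised members (interquartile range 1.27 to 1.73) and 0.511 times over the lowered members (0.460 to 0.577). In the lowered stretch 39 of 53 genes lay between 0.4 and 0.6, 4 lay lower and 10 higher. The raised stretch was wider. There, 28 of 59 ratios lay between 1.3 and 1.7, 15 lay above and 16 below. The summed reads of the raised members were 6405 per 1000000 reads in B8 and 3888 to 4239 in the other libraries, a ratio of 1.57. For the lowered members they were 2223 per 1000000 reads in B8 and 4288 to 4497 elsewhere, a ratio of 0.502. The DNA of these cultures was not analysed here, and fewer cells with a transcript cannot be told apart from fewer transcripts per cell in such bulk libraries.

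**Figure D4:**
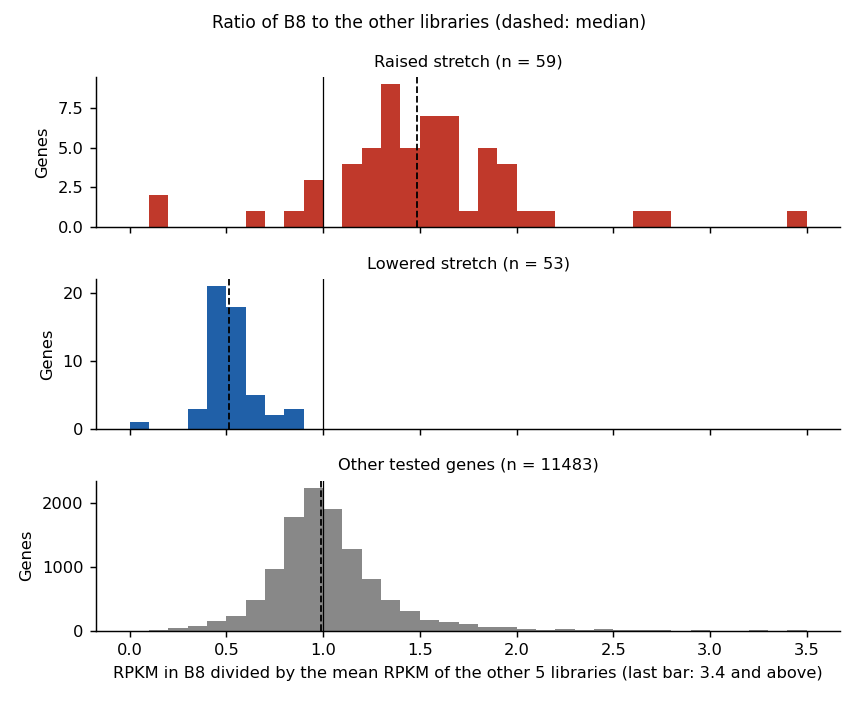
Number of genes (vertical axes) by the RPKM in B8 divided by the mean RPKM of the other 5 libraries (horizontal axis), for the raised members, the lowered members and all other genes tested. Dashed lines mark the medians (1.48, 0.511 and close to 1), and 39 of the 53 lowered members fall between 0.4 and 0.6.

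The rule set only a minimum for the level of the members and used neither their length nor their GC content. In the 5 other libraries the median level was 10.2 RPKM over the raised members, 10.6 over the lowered members and 12.7 over all genes tested. The median cDNA length was 2767 bases in the raised stretch, 3093 in the lowered stretch and 2732 over all genes, and the median GC content was 50.2%, 49.4% and 50.8%. Of the raised members 29 lie on the plus strand and 30 on the minus strand, and of the lowered members 24 and 29.

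The genes below the minimum were too thinly read to be members. Of 34 such genes in the raised stretch, 14 had at least 100 reads over the 6 libraries, and their median ratio was 1.17 (8 above 1 and 6 below). Of 65 in the lowered stretch, 9 had as many reads. Their median ratio was 0.726, with 8 below 1 and 1 above. The gene nearest to the limit inside was Slc25a29, a mitochondrial carrier with a mean of 1.01 RPKM and a ratio of 0.560, and the nearest outside was Gm8300, with 0.862 RPKM and a ratio of 0.209.

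Besides Jdp2 and Fos, the largest upward differences were in Numb (1.07), Mfsd7c (1.06) and Sptlc2 (1.02). Numb encodes an inhibitor of Notch signalling. It had 6.78 RPKM in A6, 7.88 in C4, 5.68 in EB3-0, 6.86 in EB3-1, 6.89 in EB3-2 and 14.8 in B8. Mfsd7c encodes a membrane transporter and had 2.52 RPKM in B8 against 0.762 to 1.22 elsewhere. Their mean was 0.958 RPKM, so Mfsd7c reached the minimum of 1 RPKM only through B8, the only 1 of the 112 members that did. Sptlc2, a subunit of the enzyme that starts sphingolipid synthesis, had 18.2 RPKM in A6, 18.1 in C4, 17.3 in EB3-0, 15.2 in EB3-1, 15.3 in EB3-2 and 34.4 in B8. In these genes B8 had at least 2.05 times the mean of the others, and no other library came near it.

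Members with other roles are given by list, as a description, since the rule used the same values. B8 was above all other libraries in 81.4% of all raised members and in 25.3% of all genes tested. Among 10 metabolic enzymes of the raised stretch, B8 was above all other libraries in 9, with a median difference of 0.46. Dlst, of the 2-oxoglutarate dehydrogenase complex, had 78.1 RPKM in B8 and 44.3 to 49.3 RPKM elsewhere, and Coq6, of coenzyme Q synthesis, had 29.5 RPKM against 15.8 to 21.5. All 5 members for membrane traffic, the endoplasmic reticulum and the lysosome had B8 on top, with a median of 0.75. Npc2, a cholesterol carrier of the lysosome, had 68.7 RPKM in B8, against 30.9 to 38.4 RPKM in the others. Of 7 members for transcription, splicing and translation, 6 had B8 on top, with a median of 0.34. Eif2b2, a subunit of the exchange factor for eIF2, had 78.0 RPKM in B8 and 47.6 to 59.0 RPKM elsewhere. Ahsa1, an activator of the chaperone HSP90, had 322 RPKM in B8 and 199 to 256 RPKM in the others. The same median over all genes tested was -0.005.

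In 11 raised members B8 was not the highest library. Both acyl-CoA thioesterase members, Acot1 and Acot2, had values of B8 inside the range of the others, with differences of -0.15 and -0.04. The mismatch repair gene Mlh3 had 13.6 RPKM in B8 and 11.1 to 17.3 RPKM elsewhere, a difference of -0.10. Gtf2a1, a subunit of the general factor TFIIA, had a difference of 0.01. Farthest against the stretch were Gm5662 (-1.32), Gm5039 (-1.17) and 4933437F05Rik (-0.51). The predicted gene Gm5662 had 0.866 RPKM in A6, 0.169 in B8, 0.115 in C4, 2.43 in EB3-0, 1.79 in EB3-1 and 1.77 in EB3-2. Its neighbour Gm5039 had 1.09 RPKM in A6, 0.189 in B8, 0.086 in C4, 2.37 in EB3-0, 1.44 in EB3-1 and 1.21 in EB3-2. In both genes C4 was even lower than B8 and the 3 EB3 cultures were highest. In the predicted genes Gm8300, Gm1995, Gm2016 and Gm2022, nearby and below the minimum, A6, B8 and C4 were all under the 3 EB3 cultures. In Gm7104, A6 was under them, whereas B8 and C4 were not. Gm5662 has a copy on chromosome 12 that matches 99.3% of 1651 bases of its transcript, so its reads cannot be placed with certainty. Without Gm5662 and Gm5039 the median difference of the raised members was 0.58.

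Among the lowered members, the largest differences were in Scarna13 (-2.60), Spata7 (-1.43), Ubr7 (-1.41), Snhg10 (-1.26) and Yy1 (-1.20). Scarna13, a small Cajal body RNA, was listed at 0 in B8 and between 1.97 and 3.62 RPKM elsewhere. It lies inside its host gene Snhg10, which had 1.91 RPKM in B8 and 3.75 to 6.51 RPKM elsewhere, so the reads of both cannot be separated. Ubr7, of the UBR-box protein family, had 135 RPKM in A6, 117 in C4, 121 in EB3-0, 113 in EB3-1, 113 in EB3-2 and 44.8 in B8. Spata7, which encodes a ciliary protein, had 1.55 RPKM in B8 and 4.58 to 5.49 RPKM in the others. Yy1, a zinc finger transcription factor, had 22.2 RPKM in B8 and 44.8 to 59.9 RPKM in the others. For Ubr7, Spata7 and Yy1, B8 was less than 0.43 times the mean of the others, and the lowest of the others was at least 2 times B8.

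The lowered stretch holds several genes that most cells use. All 4 members for RNA processing and translation had B8 below every other library, with a median difference of -0.98. B8 was below all others in 84.9% of all lowered members, which its values chose, and in 26.5% of all genes tested. Dicer1, the nuclease that completes microRNAs, had 20.2 RPKM in A6, 21.4 in C4, 15.4 in EB3-0, 21.5 in EB3-1, 21.8 in EB3-2 and 10.6 in B8. Papola, the poly(A) polymerase, had 43.5 RPKM in B8 and 64.3 to 85.7 RPKM elsewhere. The RNA helicase gene Ddx24 had 47.9 RPKM in B8 against 94.8 to 108, and Wars, the tryptophanyl-tRNA synthetase, had 35.2 RPKM against 76.2 to 89.0. Psmc1, an ATPase of the 26S proteasome, had 61.8 RPKM in B8 and 117 to 147 RPKM in the others, and its transcript has a 97.2% copy of 725 bases on chromosome 16. Glrx5, which serves iron-sulfur cluster assembly in mitochondria, had 46.2 RPKM in B8 against 82.8 to 108. Tdp1, which repairs DNA bound to topoisomerase, had 13.1 RPKM in B8 against 21.2 to 25.1. In each of these genes the 5 other libraries did not overlap with B8.

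In 8 lowered members B8 was not the lowest library. In 7 of them, among which were Foxn3, Rps6ka5, Trip11 and Ccdc85c, EB3-0 was the only library under B8. The forkhead gene Foxn3 had 2.84 RPKM in B8, 2.09 in EB3-0 and 5.54 to 6.29 in the others. In the eighth, Ak7, which encodes an adenylate kinase of motile cilia, all 3 EB3 cultures were under B8. Ak7 had 12.3 RPKM in A6, 13.1 in C4, 7.39 in B8, 6.61 in EB3-0, 5.60 in EB3-1 and 4.87 in EB3-2. The differences nearest to 0 in the lowered stretch were those of Ak7 (-0.08), Ccdc85c (-0.19) and Rps6ka5 (-0.25).

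A6 and C4 against EB3 compares the members between the parental line and the clones whose own shift did not choose them. Effects of the Sim2 transgene and other differences of these clones from the parental line cannot be told apart in it. None of the 112 members passed limma at an adjusted p under 0.05, against 0.147% of all genes tested, and 13 (11.6%) had an unadjusted p under 0.05, against 14.5% of all genes. The median log2 fold change was 0.01 in the raised stretch and 0.05 in the lowered stretch, where that of all genes was -0.001. Both A6 and C4 lay above all 3 EB3 values in 9 raised and 11 lowered members, a pattern of 16.6% of all genes. Both lay below them in 9 raised and 5 lowered members, against 17.7% of all genes.

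Esrrb had a log2 fold change of 0.12 ± 0.09 (SE) in A6 and C4 (limma, adjusted p = 0.629). Jdp2 had 0.40 ± 0.15, with both clones above all 3 EB3 values (limma, adjusted p = 0.312). For Fos the value was 0.02 ± 0.18 and for Tcl1 0.05 ± 0.12 (limma, adjusted p = 0.977 and 0.908). None of the 4 genes passed after adjustment, and Jdp2 had an unadjusted p of 0.0385 by limma. The value of Jdp2 ran from 0.20 without C4 to 0.60 without A6. Without EB3-0 the values were 0.11 for Esrrb, 0.43 for Jdp2, 0.02 for Fos and 0.14 for Tcl1 (limma, adjusted p = 0.104, 0.0728, 0.936 and 0.169). With only 5 libraries, a p that misses the threshold does not show that the levels are equal.

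The fold changes of A6 and C4 that were largest in size among the members were those of Gm5662, Gm5039, Ak7 and Acot1. Gm5662 had -1.43 ± 0.34 and Gm5039 -1.13 ± 0.43 (limma, adjusted p = 0.156 and 0.304), and Ak7 had 1.10 ± 0.15 (limma, adjusted p = 0.0644). Acot1 had 4.42 RPKM in A6, 3.61 in C4, 8.02 in EB3-0, 5.86 in EB3-1 and 7.30 in EB3-2, a log2 fold change of -0.74 ± 0.17 (limma, adjusted p = 0.155). In these 4 genes the clones and EB3 did not overlap, but the adjusted p missed the threshold. When EB3-0 was left out, 21.6% of all genes tested passed it, and 16 members did (8 higher and 8 lower). These included Ak7 (1.20, adjusted p = 0.00168), Yy1 (-0.37, adjusted p = 0.00800) and Sptlc2 (0.24, adjusted p = 0.0435), all by limma. EB3-0 thus moved the count of members, as it moved the count over all genes. With the trends of each library in cDNA length and GC content removed, Ak7 (1.12, adjusted p = 0.0225) and Acot1 (-0.78, adjusted p = 0.0385) passed by limma. The share of all genes that passed under this setting is not given here, so nothing is read from these 2 calls.

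**Figure D5:**
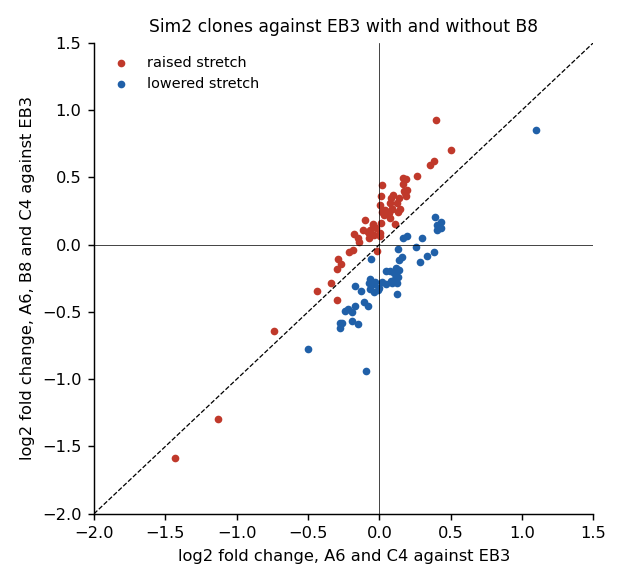
Each point is a member, with its log2 fold change of A6 and C4 against EB3 (horizontal axis) and that of A6, B8 and C4 against EB3 (vertical axis); the dashed line marks equal values. Adding B8 moved the raised members (red) up, to a median of 0.20, and the lowered members (blue) down, to a median of -0.27.

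When B8 is counted as 1 of the 3 Sim2 clones, as in the comparison of the study, the members took on part of its shift. The median log2 fold change of the clones against EB3 was 0.20 in the raised stretch with B8 and 0.01 without it. In the lowered stretch it was -0.27 with B8 and 0.05 without it. The sign of the fold change differed between the 2 versions in 13 raised and 20 lowered members. Since the values of B8 chose the members, their calls in this comparison are a description, from which nothing is read. None of the 112 members passed limma, where 0.699% of all genes did, and 12 (10.7%) had an unadjusted p under 0.05, against 17.8% of all genes. Without A6 a single member, Gm5662, passed (-1.95 ± 0.21), and the share of all genes that passed without A6 is not given here.

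The list of genes that the study placed next to SIM2 sites holds 12 members (10.7%), 9 of them raised and 3 lowered, against 10.1% of all genes tested. Among the raised ones are Esrrb, Fos, Jdp2, Sptlc2, Ahsa1 and Ston2, an adaptor of endocytosis, and Dicer1 is among the lowered ones. In A6 and C4 against EB3, the 9 raised members on the list had a median of 0.12 and the other 50 raised members 0.01. The 3 lowered members on the list had a median of 0.10, the other 50 lowered members 0.05, and all 1169 listed genes tested 0.05. Ston2 had the highest value among the listed members, 0.51 ± 0.20 (limma, adjusted p = 0.318), and Gtf2a1 the lowest, -0.44 ± 0.12 (limma, adjusted p = 0.191).

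Genes elsewhere in the genome that act with the members were read from lists of partners and relatives, with B8 set against A6 and C4. B8 is a single library in this fit, with no replicate, so its own spread is unknown and only effect sizes are given here. They compare this library with those of A6 and C4. The 9 AP-1 and related bZIP genes outside the stretches had a median log2 fold change of 0.01. Jun, the partner of FOS and JDP2, had 2.45 RPKM in A6, 2.90 in C4, 1.82 in EB3-0, 2.58 in EB3-1, 2.08 in EB3-2 and 5.71 in B8. B8 lay above the other libraries, and the log2 fold change was 0.97. Junb had 42.1 RPKM in B8 and 42.7 to 48.1 RPKM elsewhere.

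The 12 genes of the pluripotency network around ESRRB had a median log2 fold change of 0.14 in B8 against A6 and C4. Dppa3, which encodes a maternal factor that protects DNA methylation in the early embryo, had 14.1 RPKM in A6, 15.8 in C4, 21.1 in EB3-0, 14.6 in EB3-1, 16.1 in EB3-2 and 2.99 in B8. Its log2 fold change was -2.15, the largest in size on this list. The value was -2.23 without A6 and -2.07 without C4. Nanog had 419 RPKM in B8 and 335 to 369 RPKM elsewhere, a log2 fold change of 0.21. Tbx3 had 37.1 RPKM in B8 against 17.2 to 26.2, a log2 fold change of 0.79.

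The other partner lists held 8 genes that act with DICER1 in microRNA processing and 7 AKT kinases and regulators. They also held 11 genes of the Notch pathway and 5 ATPases of the 26S proteasome. Their median log2 fold changes of B8 against A6 and C4 were 0.09, 0.09, 0.03 and 0.00. In A6 and C4 against EB3, none of the 52 genes on all these lists passed limma, against 0.147% of all genes tested. There, 6 had an unadjusted p under 0.05, against 14.5% of all genes. In the 3 clones against EB3 none of the 52 passed limma, against 0.699% of all genes. In that comparison 7 had an unadjusted p under 0.05, against 17.8% of all genes.

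Outside the stretches, but on chromosome 12 as well, Gpx2 encodes a glutathione peroxidase and lies ahead of the raised stretch. It had 237 RPKM in B8 and 23.8 to 52.5 RPKM elsewhere. Its log2 fold change in B8 against A6 and C4 was 2.49, with 2.82 without A6 and 2.16 without C4. No count of genes is read from this comparison, because B8 is 1 library.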

How the data were processed

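Messenger RNA libraries of 6 mES cultures were sequenced in paired reads with a kit that does not mark strand. The authors mapped the reads to mm9 with BWA at default settings, took exon coverage of each gene from their own pipeline, and the deposited unit is RPKM, given with gene positions and cDNA lengths; versions and the handling of reads with several positions are not given in the sources used here. The authors tested differential expression with edgeR. Unused per-sample columns numbered 0. Multiplied by the cDNA length, 100% of values were whole multiples of 1 step per library, which gave the reads per library. 1 read in 2 kb of cDNA was worth at most 0.0199 RPKM.

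Values were taken as log2(RPKM + 0.5), a scale that understates changes of low genes. Genes with a mean of at least 1 RPKM were tested (51.3%). Comparisons were fitted over all of them with limma (version 3.58.1, R 4.3.3; lmFit, eBayes with trend) and adjusted by the Benjamini-Hochberg method, and adjusted p under 0.05 was called. A6 and C4 against EB3 left B8 out, and the 3 clones against EB3 used all libraries. B8 against A6 and C4 came from a fit with 3 groups and is read by effect sizes only, because B8 is 1 library. Its counts of genes called are listed only to show their dependence on the processing, and nothing is read from them. Fits were tested on simulated data. The members and all gene lists were chosen with earlier results of these data known. Named were the 4 genes Esrrb, Jdp2, Fos and Tcl1, the 5 largest differences with and the 3 farthest against each stretch, the genes at its ends, up to 5 genes of each role or partner list, and members passing in A6 and C4 against EB3. Ahsa1, Slc25a29, Flrt2, Gpx2, Foxn3, Gm8300, Gm1995, Gm2016, Gm2022, Gm7104 and the genes named for A6 and C4 were picked after their values were seen. The list of genes next to SIM2 sites was used as symbols only. Transcripts of 104 members were compared with the genome (BLAST 2.17.0), and 17 had a copy of at least 300 bases at 95% identity. Besides Gm5662 and Psmc1 these include Yy1, Acot1, Acot2, Gtf2a1, Foxn3 and Ston2, so some of their reads may be misplaced. 19 members overlap another listed gene, so some of their reads may be shared. GC content was known for 96.1% of genes tested. Promoters were read from the mm9 genome at the listed start. Some members are not reported by name here.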

Additional observations from a re-analysis of the deposited data

How the results depend on the processing

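No paired analysis was possible because the clones carry names and the EB3 cultures numbers, which they do not share. The median difference of B8 kept its direction in both stretches under every setting. The values of B8 chose the members, so this direction was largely fixed by that choice. In the raised stretch it was 0.53 with a pseudocount of 1, 0.40 with no minimum (88 genes) and 0.53 to 0.58 when another library was left out. In the lowered stretch it was -0.97 with a pseudocount of 0.1, -0.85 with 1, -0.59 with no minimum (90 genes), -0.98 with a minimum of 5 RPKM, -0.93 with libraries centred, -0.92 with length and GC trends removed, -0.87 with EB3-1 and EB3-2 averaged, and -0.91 to -0.87 when another library was left out. In A6 and C4 against EB3, the lowered median was -0.011 with no minimum, 0.080 with a minimum of 5 RPKM, and -0.0027 to 0.065 when 1 library was left out, and the raised median ran from -0.035 to 0.037. Members called there numbered 2 with trends removed and 0 to 16 when 1 library was left out. The 16 came without EB3-0, where 21.6% of all genes tested passed. In the 3 clones against EB3 members called numbered 0 to 1. Shares over all genes are not given for trends removed or for the other left-out libraries, so nothing is read from those counts. The counts of genes called in B8 against A6 and C4 rest on 1 library of B8, without a replicate. They are listed only to show how far they move between settings, and no gene is taken as changed from them. Outside the stretches, the 24 genes called in B8 against A6 and C4 became 0 with no minimum, 8 with libraries centred, 357 with trends removed, 9 with EB3-1 and EB3-2 averaged and 0 to 1468 when 1 library was left out, the 1468 without EB3-0. Fos in A6 and C4 against EB3 ran from -0.082 without EB3-2 to 0.12 without EB3-1 and was -0.042 without A6, and Tcl1 ran from -0.026 without EB3-2 to 0.14 without EB3-0 and was -0.0041 without C4. The causes were not tested. 1 read in 2 kb of cDNA was worth at most 0.0199 RPKM, against a minimum mean of 1 RPKM for the members.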
